A study of Mus musculus with 31 samples.

Results

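The comparison described here set small RNA of mouse embryonic stem cells after 8 days of 4-hydroxytamoxifen (4-OHT) against the same kind of cells after 4 days. Its members were the 6 small RNA libraries of those days, 3 per day, out of 31 libraries in the series, and every one of the 1907 mature microRNAs in the count table. The cells were the male DTCM23/49 XY stem cell lines with a conditional Dicer mutation, kept with LIF on gelatin. Day 8 and day 4 cells alike were grown with 800 nM 4-OHT, the drug that switches on loss of Dicer1 function. The labels give all small RNA libraries, those of day 0 included, the genotype "Dicer depleted", so untreated day 0 cells are named here by their day alone. Day 0, day 10 and day 12 libraries, 3 each, entered the same statistical model and are used only to place the change between days 4 and 8. The labels number the libraries as biological replicates but do not say how the cultures were separated, so p-values measure the spread between these libraries.

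Dicer cuts hairpin precursors into short duplexes, and 1 strand of each duplex is loaded into an Argonaute protein and guides it to target messenger RNAs. Bases 2 to 8 of the loaded strand, the seed, do most of the pairing with targets, so microRNAs with the same seed form a family. Once Dicer is gone no new duplexes are made from most precursors, and the mature microRNAs already present are lost by decay and by dilution as cells divide. Mouse embryonic stem cells are rich in microRNAs of the miR-290 cluster, with smaller amounts of the miR-302 cluster that shares its main seed, and these are known for promoting the rapid cell cycle of stem cells.

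Of the 260 microRNAs with enough reads to be tested, 227 had a mature sequence in RefSeq (GRCm38.p6, the mm10 assembly). The sequences below carry the results that follow: the most abundant members, the 2 arms of hairpins whose arms parted, the fastest and slowest to go, and an entry that rose. Capitals mark the seed, bases 2 to 8.

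The 2 arms of the Mir182 hairpin, at chr6:30165962-30165986 and chr6:30165923-30165943 on the minus strand with no other annotated gene over them, and the 5p arm of its neighbour Mir183, at chr6:30169711-30169732 on the same strand, are these.
miR-182-5p: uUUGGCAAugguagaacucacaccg
miR-182-3p: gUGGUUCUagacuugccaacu
miR-183-5p: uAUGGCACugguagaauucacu

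The 2 arms of Mir295 lie at chr7:3220815-3220837 and chr7:3220779-3220800 on the plus strand, opposite an exon of Nlrp12. The 2 arms of Mir21a lie at chr11:86584120-86584141 and chr11:86584082-86584103 on the minus strand, inside an exon of Vmp1.
miR-295-3p: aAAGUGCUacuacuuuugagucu
miR-295-5p: aCUCAAAUguggggcacacuuc
miR-21a-5p: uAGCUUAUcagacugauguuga
miR-21a-3p: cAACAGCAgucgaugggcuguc

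The stem cell seed AAGUGCU is shared by miR-295-3p and by members of both stem cell clusters, of which the miR-302 members lie opposite an intron of Larp7 on chromosome 3.
miR-294-3p: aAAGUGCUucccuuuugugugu
miR-291a-3p: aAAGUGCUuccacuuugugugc
miR-302d-3p: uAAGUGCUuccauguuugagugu
miR-302b-3p: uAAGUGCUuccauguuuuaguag

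The seed AUUGCAC is shared by 5 tested arms, and miR-92a-3p is encoded on chr14:115044476-115044496 in an exon of Mir17hg and again on chrX:52741854-52741874.
miR-92a-3p: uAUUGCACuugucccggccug
miR-92b-3p: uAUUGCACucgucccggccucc
miR-25-3p: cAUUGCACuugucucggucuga
miR-363-3p: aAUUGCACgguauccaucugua
miR-367-3p: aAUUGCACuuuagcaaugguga

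Among the members that fell furthest were the 5p arm of a hairpin in an exon of Mir17hg, at chr14:115044437-115044459, and 2 imprinted microRNAs of chromosome 12, at chr12:109618305-109618326 in an intron of Rian and at chr12:109586122-109586141.
miR-92a-1-5p: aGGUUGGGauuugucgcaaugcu
miR-370-3p: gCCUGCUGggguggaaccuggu
miR-540-3p: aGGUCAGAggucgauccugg

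Of the entries that rose, miR-30c-5p has the seed of the abundant miR-30e-5p, which fell, and is encoded at chr1:23291714-23291736 and chr4:120769584-120769606.
miR-30c-5p: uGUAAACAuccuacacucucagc
miR-30e-5p: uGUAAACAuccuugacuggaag

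The libraries held 11637367 to 14851928 reads at day 8 and 13358032 to 16216368 reads at day 4, of which 117027 to 220186 and 1521916 to 1797185 lay on microRNAs. RPM below means reads on a microRNA per 1000000 reads of the library, assigned or not, so a value is a share of the small RNA pool and not an amount per cell. MicroRNAs made up 1.48, 0.885 and 1.01% of all reads in the day 8 libraries, against 9.39, 12.7 and 11.7% in the day 4 libraries. The groups did not overlap. The mean share was 10.0-fold lower at day 8, and the exact two-sided permutation test gave p = 0.1, the smallest that 3 against 3 libraries allow. In bulk samples, fewer microRNA-holding cells and fewer microRNAs per cell cannot be told apart. Reads placed with confidence outside every annotated microRNA were 20.9 to 22.1% of all reads at day 8 and 17.4 to 19.3% at day 4. Aligned reads of low mapping quality, left unassigned, were 52.7 to 65.8% at day 8 and 49.1 to 59.6% at day 4. The part of either class in the fall in RPM was not tested. Unaligned reads were 23.7, 12.4 and 19.5% of the day 8 libraries 1 to 3 and 23.0, 10.2 and 15.3% of the day 4 libraries 1 to 3.

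Most measured microRNAs fell. When only day 0 libraries decided which microRNAs were tested, so that neither day compared could select its own members, 413 of 447 fell by edgeR's quasi-likelihood test at an adjusted p under 0.05, which is 92.4%. Under the same selection 4 of the 447 rose. Selection over all 15 libraries, used for every value below, left 260 microRNAs that held 99.6% of microRNA reads at day 8 and 99.5% at day 4. Of these 233 changed, or 89.6%: 228 fell, or 87.7%, 5 rose, or 1.92%, and the other 27 did not pass the test. In 229 of the 260, or 88.1%, all day 8 libraries lay below all day 4 libraries, and in 6, or 2.31%, all lay above. The other 1647 microRNAs were too low to test: 872 had no read in the 6 libraries, and the remaining 775 had a median of 6 reads over all 6 together.

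The number of microRNAs at or above 100 RPM was 13 at day 8 and 74 at day 4, and the number at or above 1000 RPM was 3 and 22. Among the 144 tested microRNAs with at least 50 RPM at day 0, 139 fell. Their median log2 difference in RPM (day 8 minus day 4) was −4.44, with quartiles of −4.87 and −3.81, against a median of −4.28 over all 260. If the fall was even over the 4 days, the median corresponds to a halving every 0.900 days. By the same reckoning 102 of the 139 halved in under 1 day, 32 in 1 to 2 days and 5 in 2 days or more.

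The most abundant microRNA on both days was miR-182-5p, from a cluster of 3 hairpins best known from sensory organs. It had 3309, 1670.3 and 2111 RPM in the day 8 libraries, against 16670.1, 24497 and 21511 RPM in the day 4 libraries. All day 8 libraries lay far below day 4, and the log2 difference was −3.14 ± 0.40 (SE, adjusted p = 4.62e-08), a halving every 1.27 days with a 95% interval of 1.01 to 1.73. Among the 20 microRNAs most abundant at day 0, miR-183-5p alone had a smaller fall.

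miR-183-5p, its cluster neighbour, lay in that place. Its levels were 828, 372 and 477 RPM at day 8 and 1111, 1799 and 1683 RPM at day 4. The groups did not overlap, yet 36.5% of the day 4 mean was still there at day 8, a log2 difference of −1.45 ± 0.31 (SE, adjusted p = 8.22e-05). The halving time was 2.75 days, with an interval of 1.92 to 4.85.

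The leading stem cell microRNA, miR-295-3p of the miR-290 cluster, went faster. It had 611, 366.9 and 437 RPM at day 8, against 11118, 13015 and 11850.5 RPM at day 4. Its log2 difference was −4.67 ± 0.28 (SE, adjusted p = 2.40e-13), so 3.93% of the day 4 mean remained and the halving time was 0.857 days, with an interval of 0.762 to 0.978. The intervals of the halving time, 0.762 to 0.978 days for miR-295-3p and 1.01 to 1.73 days for miR-182-5p, did not meet.

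miR-92a-3p, the arm through which miR-17-92 shares a seed with miR-25, had 809.8, 475 and 657 RPM at day 8, against 10392, 12324 and 12191 RPM at day 4. It kept 5.56% of its day 4 mean, with a log2 difference of −4.17 ± 0.29 and no overlap of the days. miR-22-3p, from an exon of its host RNA Mir22hg, had 603, 343 and 410.2 RPM at day 8 and 7469, 10933 and 9711 RPM at day 4. It kept 4.82%, with a log2 difference of −4.37 ± 0.34, although its level at day 4 had not passed the test against day 0 (log2 difference 0.20, adjusted p = 0.620). miR-21a-5p, a microRNA raised in many tumours, had 903, 558 and 473 RPM at day 8 and 4871, 8314 and 7005 RPM at day 4. It kept 9.58%, with a log2 difference of −3.38 ± 0.31, and its halving time of 1.18 days (interval 0.993 to 1.46) lay between those of miR-295-3p and miR-182-5p.

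Near the fast end of the abundant set was miR-191-5p, a microRNA found in many tissues. It had 143, 91.4 and 97.96 RPM at day 8 and 3373, 4600 and 4249 RPM at day 4, a log2 difference of −5.20 ± 0.30 (SE, adjusted p = 1.39e-13). miR-298-5p fell furthest of the 20, with a log2 difference of −5.40 ± 0.32, and miR-127-3p, which is transcribed opposite the imprinted gene Rtl1, had −5.18 ± 0.50. The other members of the 20 had log2 differences between −4.95 for miR-541-5p and −3.62 for miR-423-5p, and in all 20 the day 8 libraries lay below the day 4 libraries.

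**Figure D1:**
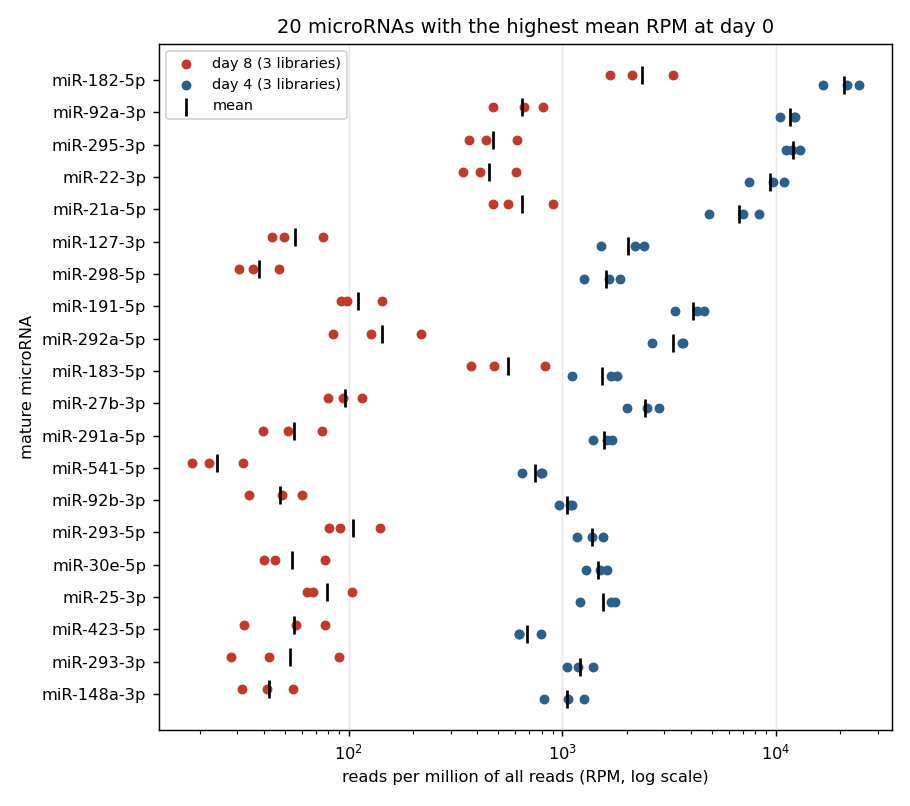
RPM (log axis) of the 20 microRNAs most abundant at day 0, in each of the 3 day 8 libraries (red) and 3 day 4 libraries (blue), with black bars for means. In every row the red points lie left of the blue ones, and the gap is narrowest for miR-183-5p, which kept 36.5% of its day 4 mean.

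The 12 largest falls among microRNAs with at least 50 RPM at day 0 left 1.22 to 2.76% of the day 4 level. miR-92a-1-5p, the 5p arm of a miR-17-92 hairpin, had 11.8, 7.87 and 7.05 RPM at day 8, against 499, 588 and 566 RPM at day 4. The day 8 libraries lay close together and far below day 4. The log2 difference was −5.95 ± 0.32 (SE, adjusted p = 7.40e-14), a halving every 0.673 days. miR-370-3p had the largest fall, with 0.202, 0.0742 and 0.258 RPM at day 8 and 14.6, 12.8 and 16.2 RPM at day 4, a log2 difference of −6.30 ± 0.51. Its day 8 value rests on 7 reads in all. miR-540-3p, with 46 reads at day 8, had a log2 difference of −6.14 ± 0.48.

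Of these 12, 7 belong to the imprinted Dlk1-Dio3 cluster of chromosome 12, namely miR-370-3p, miR-540-3p, miR-341-3p, miR-380-3p, miR-409-3p, miR-758-3p and miR-127-3p, where 19 of all 139 that fell do. The remaining members were miR-92a-1-5p, miR-298-5p, miR-191-5p, miR-301a-3p and miR-301b-3p, the last pair from 1 family with the seed AGUGCAA. The members were picked for their size of fall, so these counts describe the list and carry no test.

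At the other end, the 12 smallest falls left 11.3 to 41.1% of the day 4 level, and none of the 12 belongs to the Dlk1-Dio3 cluster. miR-295-5p, the lower arm of the Mir295 hairpin, had 63.9, 14.3 and 41.6 RPM at day 8 and 90.5, 94.7 and 106 RPM at day 4. The groups did not overlap, and the log2 difference was −1.28 ± 0.41 (SE, adjusted p = 0.00512). After it came miR-183-5p, miR-10a-5p, which lies among the HoxB genes and had a log2 difference of −1.52 ± 0.44, miR-183-3p with −1.70 ± 0.32, and miR-18b-5p with −1.90 ± 0.32. miR-290a-3p, miR-21a-3p, miR-30b-5p, miR-302a-5p, miR-672-5p, miR-532-5p and miR-182-5p followed, with log2 differences between −2.33 and −3.14.

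All 12 were highest in day 8 library 1, and 11 of the 12 were lowest in day 8 library 2. Over all 260 microRNAs, 205 were highest in library 1 and 163 lowest in library 2. Library 1 also had the largest share of unaligned reads at day 8 and library 2 the smallest, and the part of this in the small falls was not tested. Each of the 12 stayed past the threshold in the same direction when any single day 8 or day 4 library was left out.

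**Figure D2:**
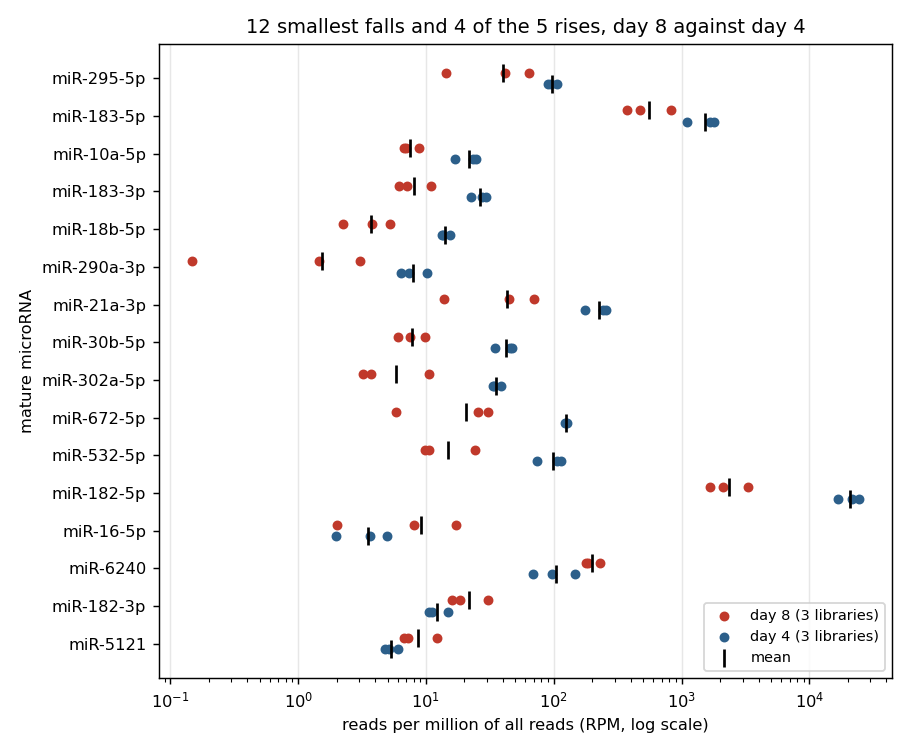
RPM (log axis) of the 12 smallest falls among microRNAs with at least 50 RPM at day 0 (upper 12 rows) and of 4 of the 5 microRNAs that rose (lower 4 rows), in each day 8 library (red) and day 4 library (blue), with black bars for means. miR-30c-5p is left out because a day 4 library had 0 reads. Between the highest and lowest of the 3 day 8 points the ratio is largest for miR-290a-3p and miR-16-5p, each lowest in library 2.

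The 5 entries that rose were low or have limits of their own. Selection over all 15 libraries measured reads against microRNA reads, so a low entry could be let in by day 8 or later libraries alone. The count of rises is therefore not free of selection. miR-182-3p, the lower arm of the most abundant hairpin, had 30.6, 16.1 and 18.6 RPM at day 8, against 11.2, 10.5 and 15.0 RPM at day 4. The groups did not overlap, and the log2 difference was 0.83 ± 0.29 (SE, adjusted p = 0.00954). Its adjusted p was 0.0682 without day 8 library 1 and 0.0551 without day 4 library 2. miR-6240 is on the list of entries suspected to lie in other abundant RNA, described further on, so its reads may not come from a microRNA. It had 184, 179 and 231 RPM at day 8 and 147, 96.9 and 69.4 RPM at day 4. The log2 difference was 0.92 ± 0.31 (adjusted p = 0.00699, and 0.0626 without day 4 library 3). miR-5121, which overlaps the small nucleolar RNA Snord33 in Rpl13a, had a log2 difference of 0.72 ± 0.31 (adjusted p = 0.0295), and its adjusted p was 0.0871 without day 4 library 1, 0.0747 without day 4 library 2, 0.192 without day 8 library 1 and 0.0644 in a fit of the day 8 and day 4 libraries alone.

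For miR-16-5p, of the cell-cycle-braking miR-15/16 family, the values were 17.3, 2.00 and 7.99 RPM at day 8 and 4.99, 1.98 and 3.67 RPM at day 4. The groups overlapped, and the log2 difference of 1.36 ± 0.49 (adjusted p = 0.0122) had an adjusted p of 0.370 without day 8 library 1 and 0.0718 without day 4 library 2. For miR-30c-5p the reads were 65, 1 and 29 at day 8 and 2, 0 and 15 at day 4. The groups overlapped here too, and the adjusted p of 0.0355 was 0.0713 to 0.271 when day 4 library 1, day 4 library 2, day 8 library 1 or day 8 library 3 was left out, and 0.180 with DESeq2. Both sequences match the genome exactly at 2 places, as do 6 more of the 227 with a sequence, and reads that could not be placed with confidence were left uncounted. Of those 8 entries 3 fell, among them miR-92a-3p, and 2 rose, against 87.7% and 1.92% of all 260. Their median log2 difference was 0.14, against −4.32 for the other 219 with a sequence. The part of the several places in this was not tested. Without day 8 library 1, 1 microRNA rose rather than 5.

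The miR-290 cluster of chromosome 7 lost the largest amount of summed RPM of the clusters, though not the largest share. The Dlk1-Dio3 cluster, which kept 3.46%, lost a larger share. So did the miR-17-92 cluster, which kept 2.84%, but its sum leaves out miR-92a-3p and miR-19b-3p. These 2 arms are shared with the miR-106a-363 cluster and were summed apart. They kept 5.57% of 11649 RPM at day 4, against 839 RPM at day 4 for the rest of miR-17-92. The summed level of the miR-290 cluster was 1310.3, 729.7 and 776 RPM at day 8, against 19099, 22767 and 21899 RPM at day 4. So 4.42% ± 1.52 (SD over the 3 day 8 libraries) of the day 4 mean remained. Of its 18 entries 17 were tested and 15 fell, and the 2 that did not pass the test, miR-290b-3p and miR-292b-3p, were under 2 RPM on both days. The median log2 difference of the 17 was −4.50, against −4.28 over all tested. Of all 260 tested microRNAs 87.7% fell, the share to hold beside the counts of members here and in the lists that follow. miR-292a-5p had −4.53 ± 0.35, miR-291a-5p −4.82 ± 0.30 and miR-293-5p −3.72 ± 0.29.

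The miR-302 cluster had a summed level of 58.4, 30.4 and 21.8 RPM at day 8 and 371, 403 and 441 RPM at day 4. It kept 9.10% ± 4.72 of its day 4 mean, and all 7 tested members fell, with a median log2 difference of −3.68. miR-302d-3p kept 7.56% and miR-302a-3p 10.1%. Members with the seed AAGUGCU, 3 from the miR-290 cluster and 2 from the miR-302 cluster, summed to 512 ± 148 RPM at day 8 and 12873 ± 973 RPM at day 4 (SD, n = 3 each), and their single log2 differences lay between −4.98 and −3.72. The 5 members with the seed AUUGCAC summed to 779 ± 195 RPM at day 8 and 14347 ± 1471 RPM at day 4. They stood closer together, with log2 differences between −4.46 and −3.68.

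The clusters related to miR-17-92 are known for driving cell division. Without miR-92a-3p and miR-19b-3p, the miR-17-92 cluster kept 2.84% ± 1.03 of its day 4 level and 6 of 7 tested members fell. The miR-106b-25 cluster kept 5.03% ± 1.18 with 5 of 5. The miR-106a-363 cluster, also without these shared arms, kept 6.18% ± 2.71 with 5 of 5. The member of miR-17-92 that did not pass the test was miR-19b-1-5p, at 1.57 RPM on day 8 and 1.08 RPM on day 4. miR-17-5p and its relatives with the seed AAAGUGC, 6 arms from these 3 clusters, had log2 differences between −5.12 and −3.52.

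The miR-182 cluster kept more of its level than most clusters and families with at least 50 RPM at day 0, beside the miR-15/16 family. Its summed level was 4192, 2071 and 2618 RPM at day 8 and 17927, 26500 and 23385 RPM at day 4, so 13.1% ± 4.87 remained, a halving every 1.36 days. Of 5 tested members 4 fell, and miR-182-3p rose. miR-96-5p, the third hairpin's main arm, had a log2 difference of −4.21, the largest fall of the 5.

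Families better known from differentiated tissues fell as well. The miR-200 family, which holds down the repressors ZEB1 and ZEB2, kept 3.49% ± 1.22 and all 5 tested members fell. The miR-125, miR-99 and miR-100 list kept 3.62% ± 1.40 with 5 of 5, the family of miR-130 and miR-301 4.46% ± 1.17 with 5 of 5, the family of miR-148 and miR-152 4.12% ± 1.10 with 4 of 4, and the miR-30 family 4.99% ± 1.58 with 9 of 10 falling and 1 rising. The miR-15/16 family kept 12.4% ± 6.11 with 9 of 10 falling and 1 rising, within the spread of the miR-182 cluster, and without day 8 library 2 it kept 15.6% against 15.1% for that cluster. Of the let-7 family, which marks differentiation, 1 of 23 entries was tested: let-7i-5p fell, with a log2 difference of −2.75. The whole let-7 family held 1.27 RPM at day 8 and 13.6 RPM at day 4.

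Precursors that bypass Drosha still need Dicer, and their 3 tested products fell. miR-877-5p, spliced out of an Abcf1 intron, had a log2 difference of −5.01 ± 0.40, miR-484 −4.95 ± 0.45 and miR-320-3p −4.40 ± 0.34. miR-451a is cut by Argonaute 2 and needs no Dicer. It had 6, 3 and 1 reads at day 8 and 3, 3 and 1 reads at day 4, too few to test, so a change was not detectable at this depth.

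Imprinted clusters were among those that fell. The Dlk1-Dio3 cluster had a summed level of 237, 141 and 150 RPM at day 8 and 3999.9, 5847 and 5416 RPM at day 4, and 36 of its 38 tested members fell, with a median log2 difference of −4.79. The Sfmbt2 intronic cluster had 12.9, 6.68 and 11.3 RPM at day 8 and 208, 251 and 224 RPM at day 4, and all 6 tested members fell.

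Across 20 lists with at least 50 RPM at day 0, 19 had all day 8 libraries below all day 4 libraries in summed RPM, and 1 had them above. As single microRNAs, 88.1% of all 260 tested had all day 8 libraries below. The exception was a list of 25 entries suspected to lie in other abundant RNA, collected from names such as miR-5099, miR-2137 and miR-6539. Its summed level was 4605, 3288 and 3482 RPM at day 8, against 2929.9, 2924 and 3061 RPM at day 4. Of 11 tested entries 1 rose (miR-6240), 3 fell and 7 did not pass the test. miR-2137 had 1486 ± 320.3 RPM at day 8 and 1132 ± 304 RPM at day 4, and miR-5099 had 1029.6 ± 159 and 931 ± 173 RPM (SD, n = 3 each), with log2 differences of 0.39 ± 0.27 and 0.14 ± 0.25 (adjusted p = 0.174 and 0.588). These entries took 34.3% ± 3.07 of microRNA reads at day 8 and 2.68% ± 0.42 at day 4 (SD, n = 3 each). Without them the microRNA share of all reads was 0.745% ± 0.245 at day 8 and 11.0% ± 1.71 at day 4, 14.7-fold lower.

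**Figure D3:**
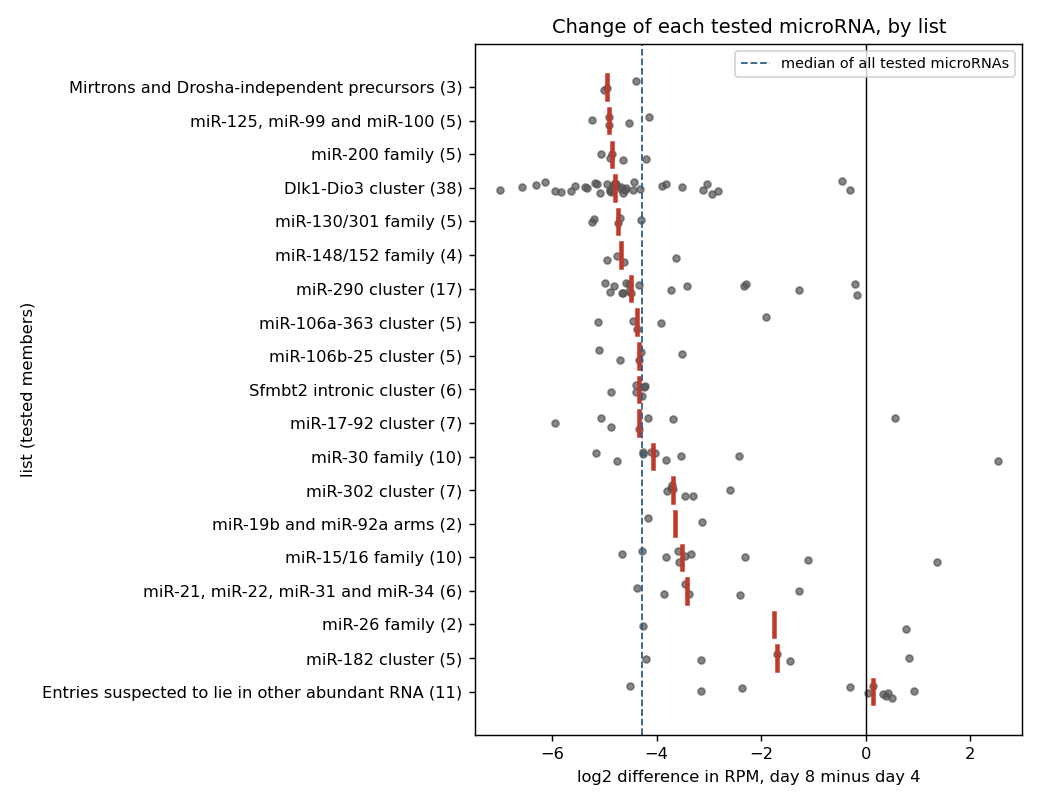
Log2 difference in RPM, day 8 minus day 4, of each tested microRNA (grey points) by list, with the list's median (red bar), the median of all tested microRNAs at −4.28 (dashed line) and no change (solid line). Lists with at least 2 tested members are shown, and the numbers in brackets count those members. The medians run between −4.95 for mirtrons and Drosha-independent precursors and 0.14 for the suspected entries, with the miR-182 cluster at −1.70.

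Of 22 stem cell marker entries from the miR-290 and miR-302 clusters, 19 were tested and all 19 fell, and the list still summed to 755 to 1358 RPM at day 8, against 19362 to 23058 RPM at day 4. Of 22 markers of other cell types, 7 had no read in the 6 libraries, among them miR-124-3p of neurons, miR-1a-3p, miR-133a-3p and miR-206-3p of muscle and miR-199a-5p of fibroblasts. miR-122-5p of liver had 1 read. The list summed to 51.0 to 75.1 RPM at day 8 and 1031 to 1339.7 RPM at day 4, mostly miR-192-5p, miR-142a-5p and miR-143-3p. All 7 tested markers fell, as did 87.7% of all 260 tested microRNAs, so neither marker count sets its list apart.

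The share of the microRNA pool held by each member shifted. Scaled against one another (TMM factors on microRNA reads), 138 of 260 microRNAs changed, or 53.1%, with 78 higher, or 30%, and 60 lower, or 23.1%. Without day 8 library 1 the split was 68 higher and 30 lower, with DESeq2 and its own size factors it was 72 higher and 108 lower, and with the total of microRNA reads as library size 53 higher and 156 lower, so the direction of a middling member depends on the scaling. Of the 78, 46 had fallen in RPM and 5 had risen. miR-183-5p made up 4.84% ± 0.70 of microRNA reads at day 8 and 1.35% ± 0.14 at day 4, and miR-295-3p 4.21% ± 0.12 and 10.7% ± 0.96. miR-182-5p held 20.7% ± 1.74 at day 8 and 18.5% ± 0.75 at day 4 (SD, n = 3 each). These shares are of all microRNA reads, of which the suspected entries held 34.3% at day 8 and 2.68% at day 4. Leaving those entries out would raise the other shares, and more so at day 8.

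Arms of the same hairpin did not always go together. In 53 hairpins with both arms tested and each arm encoded once, the log2 ratio of the lower to the higher arm (ranked at day 0) was higher in all day 8 libraries in 20, lower in all in 7, and overlapped in 26. The median change of the ratio was 0.069. In the 23 hairpins with both arms at 50 RPM or more at day 0, the ratio was higher in all day 8 libraries in 6 and lower in all in 3. Their median change was 0.043, so much of the excess of higher ratios lay in hairpins with a low arm. Selection over all 15 libraries could let in a low arm by day 8 or later libraries alone. An arm let in by its day 8 reads is favoured to show a higher ratio at day 8. The count of 20 among the 53 hairpins is therefore not free of selection, and the part of selection in the excess was not tested. For Mir182 the lower arm was 0.912% of both arms' RPM at day 8 and 0.0584% at day 4, and the log2 ratio differed by 3.98. For Mir295 it was 7.80% at day 8 and 0.803% at day 4, a difference of 3.17. Both rest on a lower arm that kept 178% and 41.1% of its own day 4 level while the main arm kept 11.3% and 3.93%.

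Among the other hairpins with the highest summed RPM at day 0, Mir127 had a change in log2 ratio of 1.36 and Mir293 of −0.91, with no overlap between days in either. Mir21a, with 0.74, and Mir292, with −0.11, overlapped. For Mir21a the miR-21a-3p values were 69.6, 13.8 and 44.8 RPM at day 8 and 176, 258 and 241 RPM at day 4, again lowest in day 8 library 2. The largest change the other way was in Mir411, where miR-411-3p kept 0.754% and miR-411-5p 3.92%. That hairpin was singled out after its values were seen. Its log2 ratio was −9.03 in day 8 library 2, and the other day 8 libraries lay on either side. At so low a level of miR-411-3p the pseudocount of 0.5 sets much of the ratio, so the size of this change is uncertain.

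**Figure D4:**
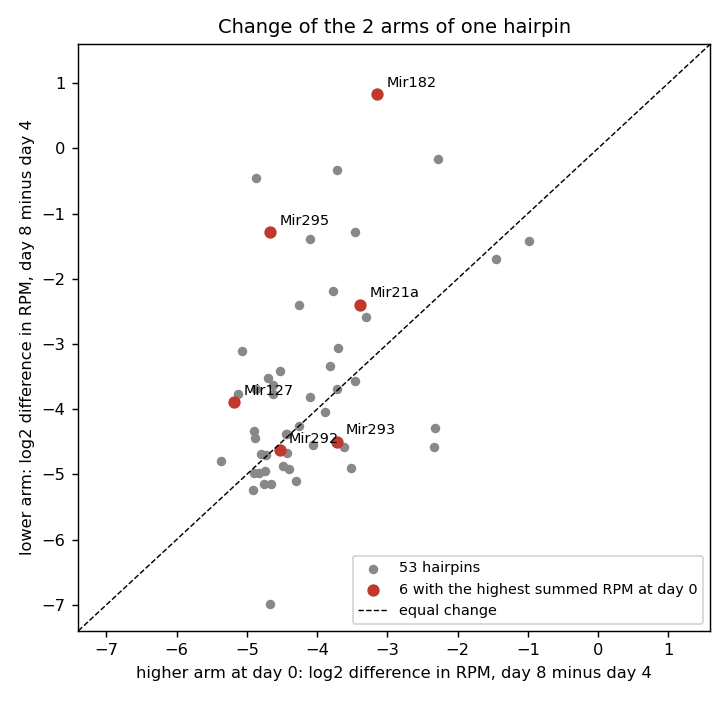
Log2 difference in RPM, day 8 minus day 4, of the lower arm (vertical) against the higher arm (horizontal) of 53 hairpins, arms ranked by RPM at day 0. Red points mark the 6 hairpins with the highest summed RPM at day 0, and the dashed line marks equal change. Mir182 and Mir295 lie furthest above the line among the red points, and Mir293 lies below it.

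Among 126 microRNAs with a sequence and at least 50 RPM at day 0, the median log2 difference was −4.65 for 57 arms named 3p and −4.29 for 64 named 5p. The 5 whose names give no arm had a median of 0.33, with quartiles of −4.51 and 0.39. By length the median was −5.17 for the 4 of at most 20 bases, −4.40 at 21, −4.54 at 22, −4.27 at 23, and −3.98 for the 7 of 24 or more. By last base it was −4.59 for U, −4.59 for C, −4.44 for A and −4.17 for G. Spearman's rho of the log2 difference with GC content was −0.17 and with length 0.13, across microRNAs that share libraries and are not independent replicates. Over the 144 with at least 50 RPM at day 0, rho with the logarithm of the day 0 level was −0.094.

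Over days 4 to 8 the fall was steeper than in the 4 days before. Among the 144 the median log2 difference was −0.86 over days 0 to 4, −4.44 over days 4 to 8 and −2.47 over days 8 to 12. The intervals share libraries, so the change of rate was tested as 1 contrast, and it passed for 203, or 78.1%. The fall over days 4 to 8 was larger than over days 0 to 4 for 202 of 260, or 77.7%, and smaller for 1, or 0.385%, miR-182-3p. Under TMM factors, which take out the fall shared by all, 116 changed rate. The log2 difference against the rest was lower over days 4 to 8 than over days 0 to 4 for 39 and higher for 77. In RPM, the fall was compared between the same intervals. This RPM fall was least even for miR-92a-1-5p, with log2 differences of −0.57 and then −5.95, a change of −5.38 ± 0.43 (SE, adjusted p = 3.71e-10). miR-200b-3p, with 0.42 and then −4.89, miR-378a-3p, with −0.014 and then −5.00, and miR-191-5p, with −0.22 and then −5.20, came next, followed by miR-99b-5p and miR-871-3p.

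Some members were already low by day 4. The miR-302 cluster stood at 15.5% of its day 0 level by day 4 and the miR-290 cluster at 60.0%. The test for a larger fall in the second interval was passed by 3 of 7 and 13 of 17 tested members, against 77.7% of all 260. miR-10a-5p had log2 differences of −2.70 over days 0 to 4 and −1.52 over days 4 to 8, and miR-18b-5p −2.73 and −1.90, with adjusted p of 0.161 and 0.164 for the change of rate. miR-183-5p had −1.31, −1.45 and −1.46 over days 0 to 4, 4 to 8 and 8 to 12, and neither change of rate passed the test.

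After day 8 the rate differed again for 118 microRNAs, or 45.4%. Over days 8 to 12 the fall was smaller than over days 4 to 8 for 110 of 260, or 42.3%, and larger for 8, or 3.08%. The counts were 162 and 4 without day 8 library 1, 71 and 17 without day 8 library 2, and 75 and 7 without day 8 library 3. Under TMM factors, which set microRNAs against one another, the direction turned. The log2 difference against the rest was higher over days 8 to 12 than over days 4 to 8 for 10 and lower for 61. The slowing of summed lists did not always begin at day 8. Of the 20 lists 5 had a steeper fall per day over days 8 to 10 than over days 4 to 8. The list of suspected entries, which had not fallen over days 4 to 8, is 1 of these 5. None had a steeper fall over days 10 to 12 apart from that same list. For the miR-125, miR-99 and miR-100 list the log2 difference per day was −1.20 over days 4 to 8, −1.44 over days 8 to 10 and −0.011 over days 10 to 12. For the family of miR-130 and miR-301 it was −1.12, −1.24 and −0.31, and for the miR-106b-25 cluster −1.08, −1.20 and −0.35, in both cases steepest over days 8 to 10. These list rates were not tested. The largest slowing was in miR-370-3p, with log2 differences of −6.30 and then −0.84, although it had 7 reads over the day 8 libraries. miR-877-5p had −5.01 and then −0.073, and miR-298-5p −5.40 and then −0.97, a change of 4.43 ± 0.51 (SE, adjusted p = 7.19e-07). miR-380-3p, miR-92a-1-5p and miR-421-3p completed the 6 largest. Of these, miR-370-3p, miR-380-3p, miR-92a-1-5p and miR-298-5p were also among the 12 largest falls. The day 8 libraries enter both intervals, so a day 8 value that is low by accident enlarges the fall and the slowing together. The entries with the opposite change and at least 50 RPM at day 0 were miR-6539, miR-5099 and miR-5126, all from the list of suspected entries, and none of these 3 passed the test between day 4 and day 8.

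**Figure D5:**
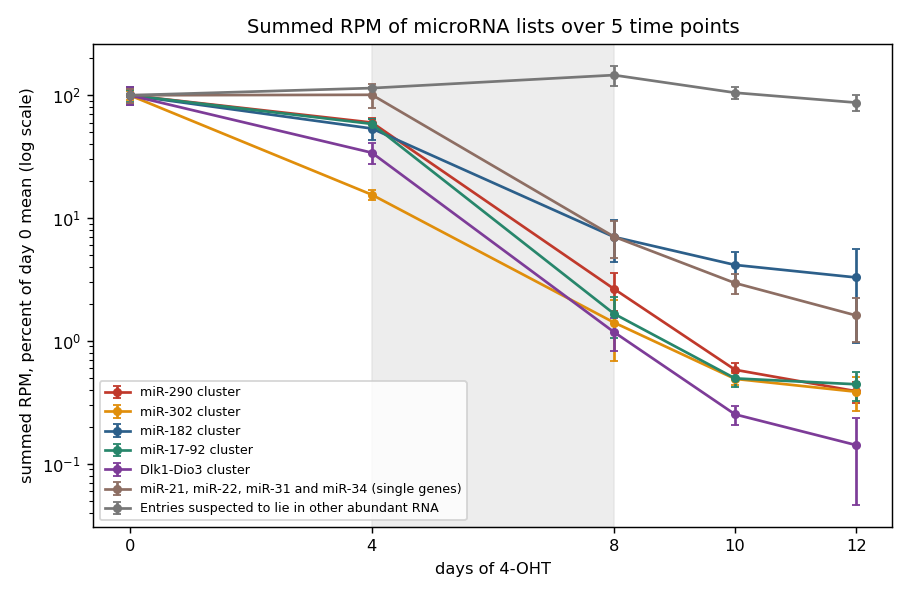
Summed RPM of 7 lists as a percentage of the day 0 mean (log axis) against days of 4-OHT, with points for means and bars for the SD of 3 libraries, and days 4 to 8 shaded. The shaded stretch is the steepest of each line but that of the suspected entries, the miR-182 cluster ends highest of the other 6 lists at day 12, and the suspected entries stay far above the other lists at days 8, 10 and 12.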

How the data were processed

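Small RNA of 15 libraries, 3 each at days 0, 4, 8, 10 and 12 of 4-OHT, was measured by single-end sequencing. The deposited values are read counts of each mature microRNA, not normalized by the authors. The labels name cutadapt 1.8 for adapter trimming, Bowtie2 with mm10 for alignment, and HTSeq with miRBase 21 for counting. Reads of low mapping quality, 40.1 to 65.8% of a library, were left unassigned, so microRNAs with identical copies can be undercounted. The 2045 rows were summed to 1907 microRNAs. The 5 summary lines entered only library totals.

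RPM used all reads as library size. edgeR 4.0.16 (quasi-likelihood, filterByExpr by day on microRNA reads, Benjamini-Hochberg over all tested, threshold 0.05) was fitted to all 15 libraries; SEs are the log2 difference over the root of F. Halving time is 4 days over the fall in log2. Arm ratios used a pseudocount of 0.5. The fit was tested on simulated data. Alternatives were DESeq2 1.42.0, other scalings and filters, a replicate block, and leaving out each library. Named were the 20 highest at day 0, the 12 largest and 12 smallest falls at 50 RPM or more, all that rose, 4 examples a list, 6 hairpins and the 6 largest rate changes each way. Members, lists and tests were chosen with earlier results of these data known. Dicer1 RNA is not measured in small RNA libraries, so loss of Dicer was not checked here. The 4sU table was not used here.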

Additional observations from a re-analysis of the deposited data

Results flagged for a closer look

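The rate of fall differed between consecutive intervals for 203 of 260 microRNAs when days 4 to 8 were set against days 0 to 4 (202 faster, 1 slower). It differed for 118 when days 8 to 12 were set against days 4 to 8, of which 110 slowed. Both were tests of the difference itself at an adjusted p under 0.05.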

How the results depend on the processing

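In RPM, 233 microRNAs changed; the count was 229 to 234 with a library left out, 417 with selection on day 0 libraries, 518 with no filter, 442 with the filter scaled to all reads (added after the data were seen), and 138 with TMM factors, under which the median log2 difference of all tested was −0.084 in place of −4.28. Relative to one another, 138 changed; the count was 98 to 133 with a library left out, 209 with microRNA reads as library size, 237 with no filter and 233 in RPM.

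A change of rate after day 4 was called for 203 (202 faster, 1 slower), for 195 to 211 with a library left out, 345 with selection on day 0, 362 with no filter and 354 with the filter scaled to all reads. Under TMM factors it was called for 116, of which 77 were higher and 39 lower against the rest. A change of rate after day 8 was called for 118 (110 slower, 8 faster) and for 82 to 166 with a library left out. Under TMM factors it was called for 71, of which 10 were higher and 61 lower against the rest. The median arm ratio change of 0.069 was 0.063 to 0.24 with a library left out, highest without day 8 library 3.

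TMM factors turned these log2 differences positive: miR-182-5p 1.05, miR-92a-3p 0.044, miR-21a-5p 0.83, miR-183-5p 2.73, miR-293-5p 0.49, miR-423-5p 0.63, miR-295-5p 2.83, miR-10a-5p 2.71, miR-183-3p 2.49, miR-18b-5p 2.29, miR-290a-3p 1.81, miR-21a-3p 1.73, miR-30b-5p 1.78, miR-302a-5p 1.501, miR-672-5p 1.53 and miR-532-5p 1.43. This scaling removes the shared fall by construction.

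Same-numbered libraries of days 8 and 4 deviated together with r of −0.05, 0.25 and −0.14 across the 260 microRNAs, so the numbers were not taken as pairs. The numbers did track the make-up of the libraries. On every treated day the share of unaligned reads put the library numbers in the same order, and low-quality reads in the reverse order. The untreated libraries did not follow these orders. What same-numbered libraries had in common was not tested. With a replicate block 233 changed in RPM (4 higher, as miR-5121 had an adjusted p of 0.0649), 139 relative to one another, 207 and 125 in rate, 19 lists fell, the median log2 difference was −4.31 and the share differed by −3.35 on the log2 scale (exact sign-flip permutation p = 0.25, the smallest possible). Depth limits day 8: 33 of 260 had under 10 reads in every day 8 library.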
